A study of Mus musculus with 14 samples.

Results

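Imprinted growth genes are genes expressed mainly from the maternal or the paternal allele whose products promote or restrain growth. The set here was fixed by name: Dlk1, Meg3, Igf2, H19, Mest, Peg3, Cdkn1c, Grb10, Plagl1 and Igf2r. It was chosen with earlier results of these data known. Each gene was read from the probe set that the array's annotation table gives to that symbol alone. Of the 10 genes, 9 were measured, each by 1 probe set, out of 19935 genes tested. The table gives H19 no probe set under its own symbol, so H19 has no value.

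The cells were mouse embryonic fibroblasts (MEFs) from ICR mice, grown in mouse embryonic stem cell medium that was renewed daily. They received GFP, SKO with an empty Flag vector (SKO+Flag), SKO with HDAC7 (SKO+HDAC7) or SKO with MEF2C (SKO+MEF2C), and were lysed on D6 or D10, written below as day 6 and day 10. MEF2C is a MADS-box transcription factor, and HDAC7 is a histone deacetylase of class IIa, whose members bind MEF2 factors. SKO is common to every group but GFP and is not written out in the labels. Feeder cells were removed and total RNA was hybridised to Affymetrix whole-transcript arrays, 14 in all: 2 per SKO group and day, and 1 per day for GFP. Whether the paired arrays came from separate cultures is not stated, so every p-value below is set against a spread between arrays that may be technical.

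In imprinting, DNA methylation laid down in the germ line marks 1 parental copy of a control region, and neighbouring genes are then expressed from a single parental allele. Many paternally expressed genes promote fetal growth and many maternally expressed ones restrain it, and many, including Igf2, Dlk1 and H19, are active in embryonic mesenchyme and decline after birth. Igf2 and H19 share a domain, as do Dlk1 and Meg3, with 1 gene of each pair expressed from each parent.

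Promoters are shown for the 5 genes lower than GFP by over 0.9 on the log2 scale in every SKO group on both days. These differences share 1 GFP array a day, and among the SKO groups the 5 genes did not all move alike. Each sequence runs from 250 bases before to 50 bases after a transcription start, 5′ to 3′ on the gene's strand, from RefSeq on GRCm38.p6. Capitals mark every CG pair, the site of DNA methylation. Where a gene has several starts, the one with most CG pairs is printed, and of equal ones the one listed before the others.
Dlk1: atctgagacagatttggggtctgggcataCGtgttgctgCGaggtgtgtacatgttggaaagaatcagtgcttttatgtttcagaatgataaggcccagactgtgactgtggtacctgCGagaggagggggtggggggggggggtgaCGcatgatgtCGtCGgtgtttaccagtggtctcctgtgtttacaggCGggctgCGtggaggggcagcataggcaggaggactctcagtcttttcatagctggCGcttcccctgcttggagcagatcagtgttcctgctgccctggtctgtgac
Meg3: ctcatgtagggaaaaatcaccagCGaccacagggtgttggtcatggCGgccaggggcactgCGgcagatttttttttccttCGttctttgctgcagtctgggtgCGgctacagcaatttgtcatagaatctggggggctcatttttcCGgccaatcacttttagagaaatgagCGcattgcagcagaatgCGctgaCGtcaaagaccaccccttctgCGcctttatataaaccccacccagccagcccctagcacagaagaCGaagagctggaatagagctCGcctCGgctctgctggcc
Igf2: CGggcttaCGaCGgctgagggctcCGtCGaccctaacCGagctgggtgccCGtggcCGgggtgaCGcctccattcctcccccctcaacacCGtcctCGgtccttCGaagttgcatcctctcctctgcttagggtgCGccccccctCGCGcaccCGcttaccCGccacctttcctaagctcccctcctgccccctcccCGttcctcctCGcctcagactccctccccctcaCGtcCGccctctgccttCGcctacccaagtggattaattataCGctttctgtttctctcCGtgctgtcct
Mest: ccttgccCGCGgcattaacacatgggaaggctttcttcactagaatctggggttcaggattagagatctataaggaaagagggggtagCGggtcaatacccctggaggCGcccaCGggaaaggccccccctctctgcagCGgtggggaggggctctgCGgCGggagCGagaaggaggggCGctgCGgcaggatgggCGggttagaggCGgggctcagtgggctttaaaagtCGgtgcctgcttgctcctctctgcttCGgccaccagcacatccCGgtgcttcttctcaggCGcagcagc
Peg3: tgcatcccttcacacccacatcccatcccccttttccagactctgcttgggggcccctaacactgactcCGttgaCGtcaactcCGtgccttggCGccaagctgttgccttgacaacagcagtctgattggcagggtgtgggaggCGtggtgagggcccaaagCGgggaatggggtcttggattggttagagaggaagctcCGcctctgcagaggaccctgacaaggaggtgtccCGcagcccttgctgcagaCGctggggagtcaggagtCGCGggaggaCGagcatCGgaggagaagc
The Dlk1 window lies at chr12:109452573-109452872 on the plus strand and holds 9 CG pairs. The Meg3 window lies on the same strand at chr12:109540746-109541045 and holds 13. The Igf2 window is on the minus strand at chr7:142658755-142659054 and holds 24. The Mest window is on the plus strand at chr6:30737800-30738099 and holds 17, and the Peg3 window is on the minus strand at chr7:6730370-6730669 and holds 13. Over all 32851 promoter windows in the table the median was 7 CG pairs. The printed windows were picked for most CG pairs, so their counts are not set against it. The starts not printed held 2, 14 and 7 for Igf2, 1 for Meg3 and 8 and 17 for Mest.

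The table holds 15 windows for 8 of the genes and lists none for Cdkn1c or H19. Plagl1, with 26 CG pairs, Igf2r, with 34, and 1 Grb10 start, with 45, held more than any printed window. A relation between CG pairs and the differences from GFP was not tested. The windows were searched on both strands for 4 motifs. For MEF2 the pattern was CTA, any 4 bases, then TAG. It is looser than the MEF2 site in the middle bases only, and variants with other outer bases were not searched. The pattern was in 1 of the 15 windows (the other Grb10 start), against 3.69% of all promoter windows. The middle bases of that match were CTGG, where a MEF2 site has only A or T. The octamer ATGCAAAT was in 0 of 15, against 1.74%. The TATA box TATAAA was in the Meg3 window alone, against 13.6%. The YY1 motif CCATNTT was in 2 windows (an Igf2 start that is not printed and a Grb10 start), against 16.1%. A match describes the letters and does not show that a factor binds there.

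**Figure D1:**
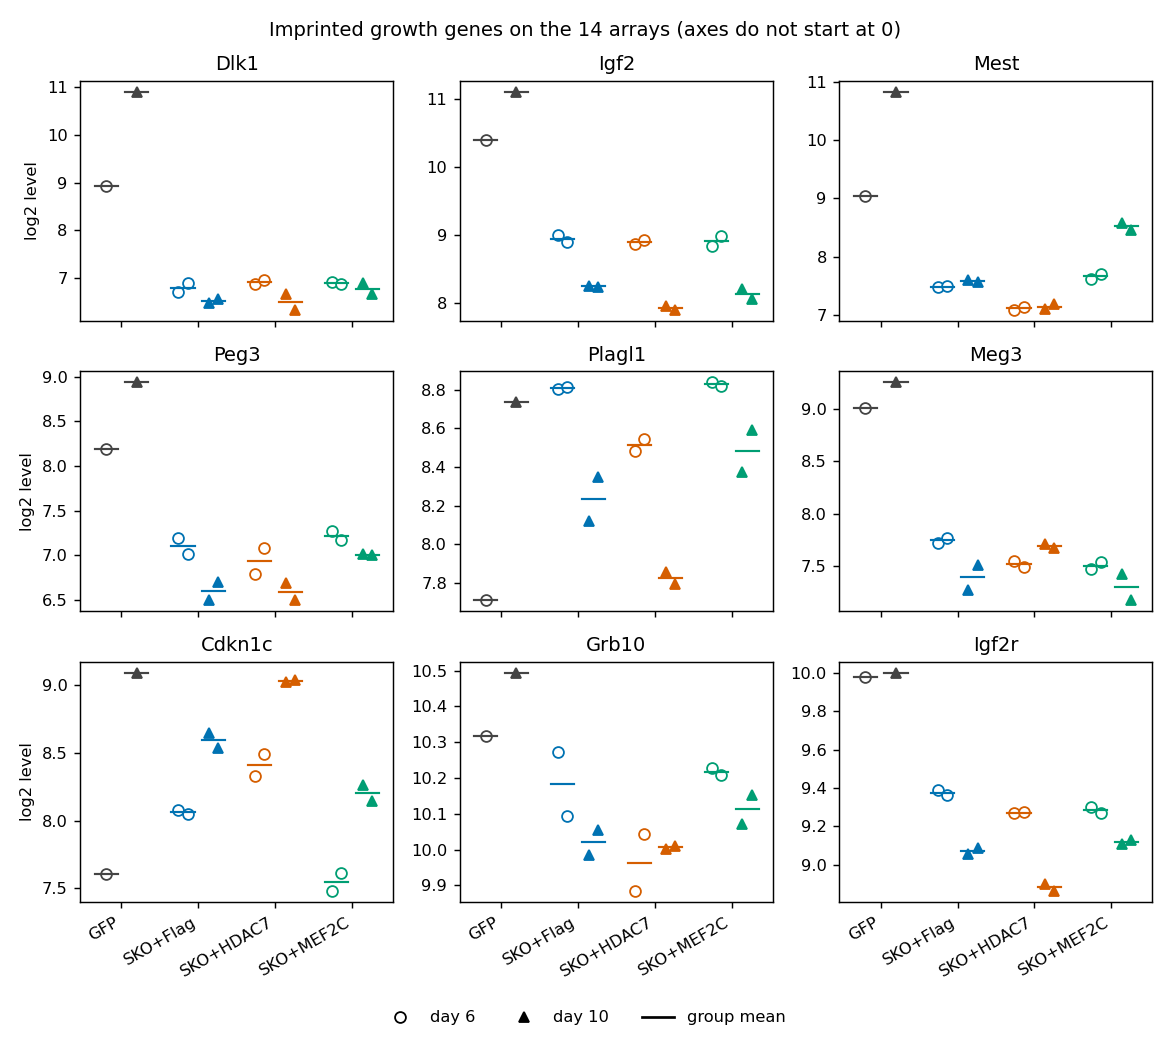
Log2 level of the 9 measured genes on each of the 14 arrays, by vector; open circles are day 6, triangles day 10 and lines group means, and the axes do not start at 0. Dlk1, Igf2, Mest, Peg3, Meg3, Grb10 and Igf2r are highest on both GFP arrays, while Cdkn1c and Plagl1 change order between the days.

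Against GFP, the paternally expressed growth genes Dlk1, Igf2, Mest and Peg3 and the maternally expressed Meg3 were lower in all 3 SKO groups on both days. The gap was wider at day 10 than at day 6 for Dlk1, Igf2, Mest and Peg3. Averaged over both days, limma called 8 of the 9 genes in SKO+Flag at a Benjamini-Hochberg adjusted p under 0.05, 7 of them lower, where 35.7% of all genes tested were called and 18.2% were called lower. In SKO+HDAC7, 8 were called, against 33.4% of all genes. In SKO+MEF2C, 9 were called, against 31.3%. Because the set was chosen with earlier results of these data known, these counts are a description only. All 3 comparisons share the same GFP arrays, 1 per day, whose spread is assumed to be that of the other groups, so they are not independent of one another. In bulk RNA, fewer cells of a type and less RNA per cell cannot be told apart.

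Dlk1, a transmembrane ligand-like protein that holds back adipocyte differentiation, read 8.93 on the log2 scale on the day 6 GFP array and 10.90 on the day 10 GFP array. The SKO+Flag arrays read 6.70 and 6.89 at day 6 and 6.48 and 6.57 at day 10, the SKO+HDAC7 arrays 6.87 and 6.97, then 6.67 and 6.33, and the SKO+MEF2C arrays 6.93 and 6.87, then 6.89 and 6.66. Every SKO array lay below both GFP arrays. At day 6 the differences from GFP were -2.14 ± 0.14 (SE) in SKO+Flag, -2.01 ± 0.14 in SKO+HDAC7 and -2.03 ± 0.14 in SKO+MEF2C. At day 10 they were -4.38 ± 0.14, -4.40 ± 0.14 and -4.13 ± 0.14 in the same order, or 20.8-fold, 21.2-fold and 17.5-fold lower. The adjusted p of these 6 differences was at most 1.5e-06. The SKO groups lay close together: their 6 group means spanned 0.42, against 4.40 over all 8 groups.

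Igf2, the fetal growth factor that signals through the IGF1 and insulin receptors, read 10.40 and 11.10 on the GFP arrays of day 6 and day 10. In SKO+Flag it read 8.99 and 8.89 at day 6 and 8.25 and 8.23 at day 10, in SKO+HDAC7 8.86 and 8.92, then 7.96 and 7.89, and in SKO+MEF2C 8.84 and 8.98, then 8.20 and 8.06. It stood higher on the later GFP array and lower on every later SKO array, with no overlap between the days in any group. The difference from GFP was -1.46, -1.51 and -1.49 at day 6 and -2.86, -3.18 and -2.97 at day 10 in SKO+Flag, SKO+HDAC7 and SKO+MEF2C, each ± 0.09. At day 10 this is 7.26-fold, 9.04-fold and 7.86-fold lower, with adjusted p-values of 2.5e-09, 7.1e-10 and 2.4e-09.

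Mest, a paternally expressed gene for a protein with an alpha/beta hydrolase fold, read 9.04 and 10.82 on the GFP arrays. It read 7.48 and 7.51 at day 6 and 7.60 and 7.57 at day 10 in SKO+Flag, and 7.09 and 7.15, then 7.11 and 7.19, in SKO+HDAC7. In SKO+MEF2C it read 7.63 and 7.70 at day 6 and 8.58 and 8.46 at day 10. All SKO arrays lay below both GFP arrays, but the SKO groups did not lie together as they did for Dlk1. At day 10 the difference from GFP was -3.24 ± 0.08 in SKO+Flag, -3.68 ± 0.08 in SKO+HDAC7 and -2.30 ± 0.08 in SKO+MEF2C (9.46-fold, 12.8-fold and 4.93-fold lower). At day 6 it was -1.55, -1.93 and -1.38, each ± 0.08. The largest of these 6 adjusted p-values was 3.5e-07.

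Peg3, a paternally expressed zinc finger protein, read 8.19 and 8.94 on the GFP arrays. It read 7.19 and 7.02, then 6.49 and 6.70, in SKO+Flag, 6.79 and 7.08, then 6.69 and 6.50, in SKO+HDAC7, and 7.27 and 7.17, then 7.013 and 7.003, in SKO+MEF2C. No SKO array reached the lower GFP array. The difference from GFP ran from -0.97 ± 0.13 (SKO+MEF2C, day 6, adjusted p = 0.00033) to -2.34 ± 0.13 (SKO+HDAC7, day 10, adjusted p = 1.6e-07). SKO+Flag differed by -1.09 at day 6 and -2.34 at day 10.

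Meg3, the maternally expressed long non-coding RNA of the Dlk1 domain, read 9.01 and 9.26 on the GFP arrays. It read 7.72 and 7.77, then 7.27 and 7.51, in SKO+Flag, 7.55 and 7.49, then 7.71 and 7.67, in SKO+HDAC7, and 7.47 and 7.53, then 7.42 and 7.17, in SKO+MEF2C. Here too every SKO array lay below both GFP arrays. Meg3 was lower than GFP by 1.26 to 1.51 at day 6 and by 1.57 to 1.96 at day 10 over the 3 SKO groups, each difference with an SE of 0.11, and the largest of the 6 adjusted p-values was 1.1e-05. Dlk1 and Meg3, neighbours expressed from different parents, were thus both lower in every SKO group. Rtl1, a paternally expressed gene of the same domain, was not called in SKO+Flag (-0.29 over both days, adjusted p = 0.059), SKO+HDAC7 (-0.05, 0.77) or SKO+MEF2C (-0.20, 0.20). Dio3 and Rian, also of this domain, were called lower over both days in all 3 groups. In SKO+Flag, SKO+HDAC7 and SKO+MEF2C, Dio3 differed by -0.79, -0.68 and -0.80 and Rian by -1.34, -1.42 and -1.29. On the SKO arrays Rian read 5.22 to 5.86, near the array medians of 5.68 to 5.76, where values include background.

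Igf2r, the maternally expressed receptor that carries IGF2 to lysosomes, read 9.980 and 10.002 on the GFP arrays and from 8.86 to 9.39 on the 12 SKO arrays, with no overlap. Its difference from GFP was -0.60, -0.71 and -0.69 at day 6 and -0.93, -1.12 and -0.88 at day 10 in SKO+Flag, SKO+HDAC7 and SKO+MEF2C, each ± 0.06 and called. Grb10, an adaptor that dampens insulin and IGF receptor signalling, had the narrowest range: 10.32 and 10.49 in GFP and from 9.88 to 10.27 in the SKO groups. Grb10 was lower at day 10 by 0.47, 0.49 and 0.38 (each ± 0.09, called). At day 6 it was called only in SKO+HDAC7, at -0.35 ± 0.09 (adjusted p = 0.017, and 0.0901 without array 1 of that group). The day 10 call in SKO+MEF2C was lost without its array 1 (0.0611). The day 6 differences of the other SKO groups, -0.14 with a 95% interval from -0.34 to 0.07 and -0.10 with an interval from -0.31 to 0.11, were not called.

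Plagl1 and Cdkn1c did not follow this order. Plagl1, a paternally expressed zinc finger transcription factor that regulates other imprinted genes, read 7.71 on the day 6 GFP array and 8.74 on the day 10 GFP array. In SKO+Flag it read 8.81 and 8.81 at day 6 and 8.12 and 8.35 at day 10, in SKO+HDAC7 8.48 and 8.55, then 7.86 and 7.79, and in SKO+MEF2C 8.84 and 8.82, then 8.37 and 8.59. The day 6 GFP array was the lowest of all 14. Plagl1 was therefore higher than GFP at day 6, by 1.10, 0.81 and 1.12 (each ± 0.11, adjusted p at most 0.00019). At day 10 it was lower by 0.50 in SKO+Flag and by 0.91 in SKO+HDAC7 (adjusted p = 0.0044 and 5.3e-05). The SKO+Flag call was lost when the compared groups were fitted alone (0.0800). The difference of -0.25 ± 0.11 in SKO+MEF2C was not called (adjusted p = 0.13, and 0.048 without its array 2). The mean over both days, 0.30 in SKO+Flag, averages opposite differences.

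Cdkn1c, the maternally expressed cyclin-dependent kinase inhibitor p57, read 7.60 on the day 6 GFP array and 9.09 on the day 10 GFP array. It read 8.08 and 8.05, then 8.65 and 8.54, in SKO+Flag, 8.33 and 8.49, then 9.02 and 9.04, in SKO+HDAC7, and 7.48 and 7.61, then 8.27 and 8.14, in SKO+MEF2C. At day 6 it was higher than GFP in SKO+Flag (0.46 ± 0.09, adjusted p = 0.004) and SKO+HDAC7 (0.81 ± 0.09, adjusted p = 7.6e-05), while the SKO+MEF2C arrays lay on both sides of the GFP array (-0.05, 95% interval -0.26 to 0.15). At day 10 it was lower in SKO+Flag (-0.50 ± 0.09) and SKO+MEF2C (-0.89 ± 0.09), and SKO+HDAC7 lay at -0.06 with an interval from -0.27 to 0.15. The mean over both days, -0.02 in SKO+Flag (adjusted p = 0.87), again averages opposite differences.

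Counted by day, the 9 genes gave 8 calls at day 6 in SKO+Flag, 9 in SKO+HDAC7 and 7 in SKO+MEF2C, where 24.1%, 24.1% and 20.7% of all genes were called. At day 10 they gave 9, 8 and 8 calls, where 26.9%, 28.0% and 22.9% of all genes were called.

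**Figure D2:**
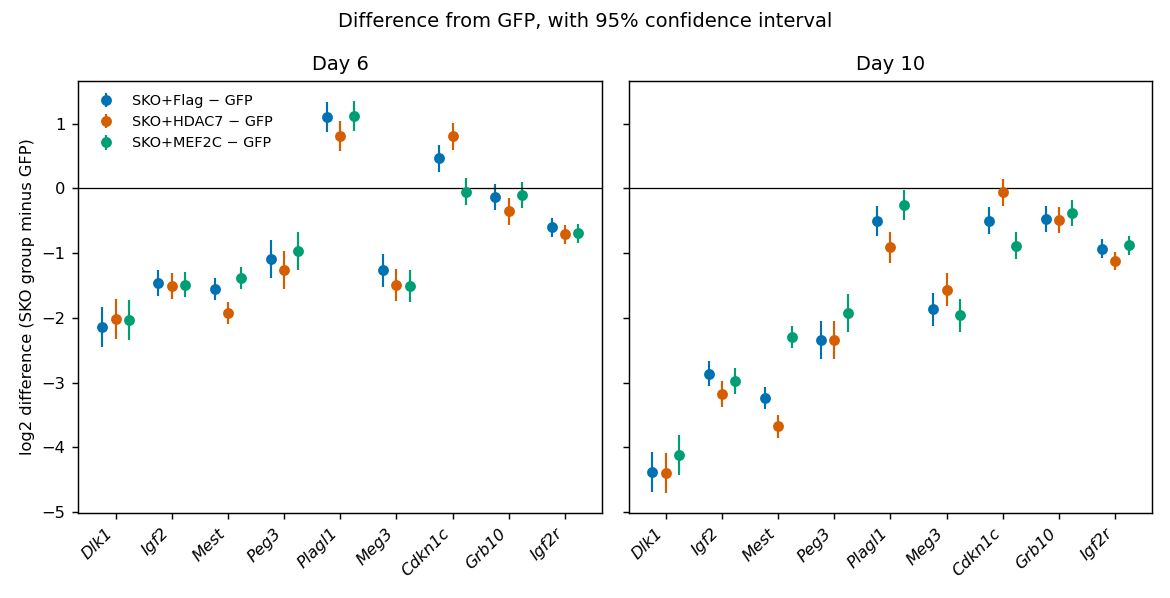
Log2 difference of each SKO group from GFP at day 6 and at day 10, with 95% confidence intervals; all points of a day share 1 GFP array. Dlk1, Igf2, Mest, Peg3 and Meg3 lie below 0 on both days, and Plagl1 lies above 0 at day 6 and below it at day 10.

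Markers of fibroblasts moved with these differences. Of 12 fibroblast markers, 11 were called lower in SKO+Flag than in GFP and 0 higher over both days, with a median difference of -1.26, against -0.04 over all genes. The mean level of the list was 10.24 and 10.93 on the GFP arrays of day 6 and day 10 and from 9.08 to 9.50 on the SKO arrays. All but 1 of the 12 lay above the array median on every array, as the cell label says, and all 7 pluripotency markers (Nanog, Esrrb, Zfp42, Dppa4, Dppa5a, Tdgf1 and Utf1) lay below it on every array. The part of the fibroblast markers in the differences of the imprinted growth genes was not tested. The mean of the 6 adipocyte markers was 5.45 and 5.47 in GFP and from 5.08 to 5.36 on the SKO arrays. The 6 endothelial markers averaged 5.32 and 5.27 in GFP and from 5.60 to 5.97 on the SKO arrays, with 4 of the 6 below the array median on every array. Over the 14 arrays the list mean ran from 5.11 to 5.47 for 7 myogenic markers, from 5.05 to 5.25 for 6 hepatic and visceral endoderm markers, from 5.02 to 5.22 for 5 trophoblast markers, from 5.59 to 5.89 for 7 neural markers and from 4.99 to 5.25 for 6 macrophage and blood markers, where the array medians were 5.68 to 5.76.

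Between the days, Dlk1, Igf2, Peg3 and Plagl1 differed with opposite signs in GFP, where all were higher at day 10, and in each SKO group, where the later mean was the lower one. In the SKO groups the fall was called for Igf2 in all 3 and for Plagl1 in SKO+Flag and SKO+HDAC7. It was called for Peg3 in SKO+Flag alone and for Dlk1 in SKO+HDAC7 alone, and both calls were lost without some single arrays. Dlk1 went from a mean of 6.79 to 6.52 in SKO+Flag, which was not called. In SKO+MEF2C it went from 6.90 to 6.78, not called, and the arrays of the days overlapped. The differences of Peg3 in SKO+HDAC7 (-0.34, adjusted p = 0.063) and Plagl1 in SKO+MEF2C (-0.35, adjusted p = 0.065) were not called, although 7 and 6 alternative settings did call them. Among those settings were leaving out either SKO+Flag array of day 10 for both genes (0.0467 and 0.0294) and array 1 of SKO+HDAC7 at day 6 for Peg3 (0.0325). From the day 6 to the day 10 GFP array, 6 of the 9 genes were called higher, where 2.51% of all genes were called higher and 3.68% in either direction: Dlk1 by 1.97 ± 0.16, Mest by 1.78 ± 0.09, Cdkn1c by 1.49 ± 0.11, Plagl1 by 1.03 ± 0.12, Peg3 by 0.75 ± 0.15 and Igf2 by 0.70 ± 0.10. The largest of these adjusted p-values was 0.023, for Peg3, and with the array number as a block within each day it was 0.0513. The differences of Meg3 (0.25), Grb10 (0.18) and Igf2r (0.02) were not called. These rest on 1 array a day. Of the 12 fibroblast markers, 7 were also called higher on the later GFP array, and their part in this was not tested.

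In SKO+Flag, 6 genes were called between the days, where 8.08% of all genes were. Igf2 fell by 0.70 ± 0.07 (adjusted p = 0.00016), Plagl1 by 0.57 ± 0.09, Peg3 by 0.51 ± 0.11 and Igf2r by 0.30 ± 0.05, while Cdkn1c rose by 0.53 ± 0.08. The Igf2r call (adjusted p = 0.0043) was lost when SKO+Flag was fitted alone (0.0965). Meg3 fell by 0.35 ± 0.09 at an adjusted p of 0.043. That call was lost in 14 settings, with adjusted p-values of up to 0.23, reached without array 1 of SKO+Flag at day 10. The Peg3 call (adjusted p = 0.015) was lost without array 1 of SKO+Flag at day 6 (0.103) or at day 10 (0.0996). In SKO+HDAC7, where 14.6% of all genes were called, Igf2 fell by 0.97 ± 0.07, Plagl1 by 0.69 ± 0.09, Dlk1 by 0.42 ± 0.11 and Igf2r by 0.39 ± 0.05, and Cdkn1c rose by 0.62 ± 0.08. The Dlk1 call (adjusted p = 0.032) was lost without array 1 or array 2 of SKO+HDAC7 at day 6 (0.0858 and 0.143) or array 2 at day 10 (0.253). In SKO+MEF2C, where 3.08% of all genes were called, Igf2 fell by 0.79 ± 0.07, and Mest rose by 0.86 ± 0.06 (adjusted p = 6.6e-05) and Cdkn1c by 0.66 ± 0.08. Igf2 was thus lower and Cdkn1c higher at day 10 in all 3 SKO groups, while Mest rose in SKO+MEF2C and differed by 0.09 (95% interval -0.05 to 0.23) in SKO+Flag and by 0.03 (-0.11 to 0.17) in SKO+HDAC7. Of the 12 fibroblast markers, 3 were called higher and 5 lower at day 10 in SKO+Flag, 2 higher and 7 lower in SKO+HDAC7, and 1 higher and 1 lower in SKO+MEF2C, with medians of -0.22, -0.35 and 0.04. Their part in these changes was not tested.

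The difference between the changes was tested as an interaction of vector and day. Against the change in GFP, 6 genes were called in SKO+Flag, 7 in SKO+HDAC7 and 6 in SKO+MEF2C, where 5.06%, 7.51% and 2.72% of all genes were called. The Dlk1 interaction was -2.24 ± 0.20 in SKO+Flag, -2.39 ± 0.20 in SKO+HDAC7 and -2.10 ± 0.20 in SKO+MEF2C. For Cdkn1c, which rose in every group, it was -0.96, -0.87 and -0.83, each ± 0.13: the rise was smaller with SKO than in GFP. In the same interactions 8, 8 and 6 of the 12 fibroblast markers were called lower and 0 higher, with medians of -0.72, -0.88 and -0.68, and their part was not tested.

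SKO+HDAC7 and SKO+Flag differ in HDAC7 against the empty vector. Averaged over both days, 5 of the 9 genes were called, 1 higher and 4 lower, where 10.9% of all genes were called. Of the 12 fibroblast markers 4 were called higher and 6 lower, with a median of -0.14, and their part in these differences was not tested. Cdkn1c was higher in SKO+HDAC7 by 0.39 ± 0.05 (1.31-fold, adjusted p = 0.00098), with no overlap of the arrays within either day. Mest was lower by 0.41 ± 0.04 (1.32-fold, adjusted p = 0.0002): the 4 SKO+HDAC7 arrays lay between 7.09 and 7.19 and the 4 SKO+Flag arrays between 7.48 and 7.60. Plagl1 was lower by 0.35 ± 0.06 (1.28-fold, adjusted p = 0.0039), without overlap within a day.

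Igf2 was lower in SKO+HDAC7 by 0.18 ± 0.05 (adjusted p = 0.044) and Igf2r by 0.15 ± 0.04 (adjusted p = 0.029). The Igf2 call was lost without any 1 of the 8 arrays of these groups, with adjusted p-values of 0.0504 to 0.132. The Igf2r call was lost without any 1 of the 4 SKO+HDAC7 arrays, array 1 of SKO+Flag at day 6 or array 2 at day 10 (0.0603 to 0.0848). For Igf2 the difference lay at day 10 (-0.32 ± 0.07, adjusted p = 0.024), when the SKO+HDAC7 arrays read 7.96 and 7.89 and the SKO+Flag arrays 8.25 and 8.23. At day 6 it was -0.05 with an interval from -0.21 to 0.11, and the change between the days was not called (-0.26, adjusted p = 0.35). The other 4 genes were not called. Their differences were 0.05 for Dlk1 (95% interval -0.13 to 0.23), 0.04 for Meg3 (-0.11 to 0.18), whose differences had opposite signs on the days, -0.09 for Peg3 (-0.26 to 0.08) and -0.12 for Grb10 (-0.24 to 0.00241). Meg3 in SKO+HDAC7 lay at -0.23 ± 0.09 at day 6 (adjusted p = 0.20) and at 0.30 ± 0.09 at day 10 (adjusted p = 0.088), with no overlap of the arrays on either day. Without array 2 of SKO+Flag at day 10, its day 10 difference (adjusted p = 0.0284) and the change between the days (0.0319, against 0.17 with all arrays) were called. Day by day, 2 genes were called at day 6 (Cdkn1c and Mest) and 4 at day 10 (Cdkn1c, Mest, Igf2 and Plagl1), where 4.58% and 7.27% of all genes were called. Of these, Cdkn1c at day 6 and Igf2 at day 10 were lost without any 1 of the 4 arrays of that day, with adjusted p-values of up to 0.153 and 0.15. Mest at day 6 was lost without array 2 of SKO+Flag (0.0531) or array 1 of SKO+HDAC7 (0.0755), and Plagl1 at day 10 without array 2 of SKO+Flag (0.0805) or either SKO+HDAC7 array (0.0622 and 0.111). Plagl1 at day 6 was called without either SKO+Flag array of day 10 (0.0439). For the change of this difference between the days limma called 0 of the 9 genes, with 2 at an unadjusted p under 0.05 (Meg3 and Igf2), where 0.125% of all genes were called.

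SKO+MEF2C and SKO+Flag differ in MEF2C against the empty vector, and this comparison shares the SKO+Flag arrays with the one for HDAC7. Over both days 2 genes were called, where 10.3% of all genes were. Of the 12 fibroblast markers 4 were called higher and 0 lower over both days, and 5 higher and 0 lower at day 10, and their part in these differences was not tested. Mest was higher in SKO+MEF2C by 0.56 ± 0.04 (1.47-fold, adjusted p = 2.5e-05), with no overlap over the 4 arrays of each group. Cdkn1c was lower by 0.45 ± 0.05 (1.37-fold, adjusted p = 0.00035), without overlap within a day. Both genes thus lay on the other side of SKO+Flag from SKO+HDAC7. Peg3 was higher by 0.26 ± 0.08 but not called (adjusted p = 0.056), although 7 alternative settings did call it, among them leaving out array 2 of SKO+Flag at day 10 (0.0345) or either SKO+HDAC7 array of day 6 (0.0363).

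The Mest difference was mainly at day 10. At day 6 the SKO+MEF2C arrays read 7.63 and 7.70 and the SKO+Flag arrays 7.48 and 7.51, a difference of 0.17 ± 0.06 that was not called (adjusted p = 0.23). At day 10 they read 8.58 and 8.46 against 7.60 and 7.57, a difference of 0.94 ± 0.06 (1.92-fold, adjusted p = 1.3e-05). The change between the days was 0.77 ± 0.09 (adjusted p = 0.015), and Mest was the 1 gene of the 9 called for it, where 0.0853% of all genes were called. This call was lost without either day 6 array of SKO+Flag (0.0552 and 0.0719), either day 6 array of SKO+MEF2C (0.0762 and 0.0741) or array 1 of SKO+MEF2C at day 10 (0.0764), and with the compared groups fitted alone (0.0925). Among the other genes, Dlk1 differed over both days by 0.18 (95% interval 0.00184 to 0.36), Plagl1 by 0.13 (-0.00233 to 0.27), Grb10 by 0.06 (-0.06 to 0.18), Igf2r by -0.02 (-0.10 to 0.06), Igf2 by -0.07 (-0.19 to 0.04) and Meg3 by -0.17 (-0.32 to -0.02), and none of these was called. Meg3 was called without array 1 of SKO+Flag at day 10 (0.0437), and Plagl1 at day 10 without array 2 (0.0403). Day by day, 1 gene was called at day 6 (Cdkn1c) and 3 at day 10 (Cdkn1c, Mest and Peg3), where 3.1% and 7.01% of all genes were called. The day 10 Peg3 call, 0.41 ± 0.11 at an adjusted p of 0.047, was lost in 13 settings, with adjusted p-values of up to 0.212 without array 1 of SKO+Flag. The Cdkn1c call was lost at day 6 without array 1 of SKO+MEF2C (0.0684), and at day 10 without array 1 of SKO+Flag (0.0673) or array 2 of SKO+MEF2C (0.105).

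**Figure D3:**
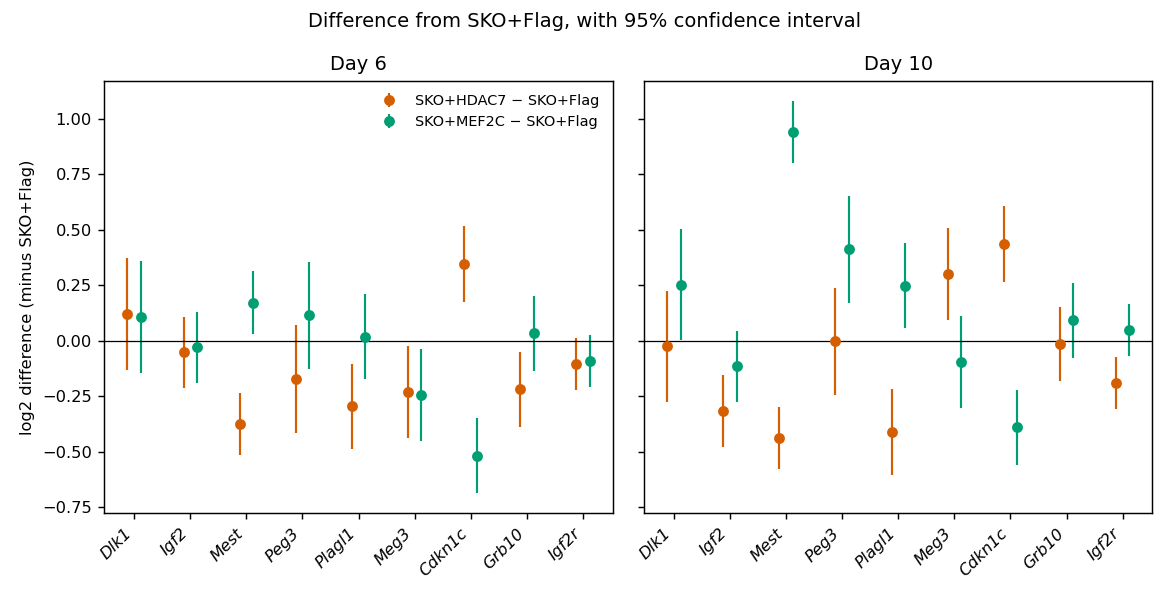
Log2 difference of SKO+HDAC7 and of SKO+MEF2C from SKO+Flag at day 6 and at day 10, with 95% confidence intervals; both share the SKO+Flag arrays. Mest and Cdkn1c lie on opposite sides of 0 in the 2 groups on both days, and Mest in SKO+MEF2C at day 10 is the farthest from 0.

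Set directly against each other, SKO+HDAC7 and SKO+MEF2C differed in 7 of the 9 genes over both days, where 22.0% of all genes were called. Mest was lower in SKO+HDAC7 by 0.96 ± 0.04 (1.95-fold, adjusted p = 8e-08) and Cdkn1c higher by 0.84 ± 0.05 (1.79-fold, adjusted p = 9.6e-07), and for both the arrays did not overlap over either day. Plagl1 was lower by 0.49 ± 0.06 and Peg3 by 0.35 ± 0.08 (adjusted p = 0.00017 and 0.0072). Grb10, lower by 0.18, Igf2r, lower by 0.13, and Meg3, higher by 0.21, were called at adjusted p-values of 0.035, 0.032 and 0.048. The Igf2r call was lost when any 1 of the 8 arrays of these groups was left out, the Grb10 call for all but array 2 of SKO+HDAC7 at day 6, and the Meg3 call for all but array 1 of SKO+MEF2C at day 10. The adjusted p then reached 0.127, 0.0997 and 0.183 for Grb10, Igf2r and Meg3. Meg3 also lost its call without either SKO+Flag array of day 6 (adjusted p = 0.061). Dlk1 (-0.13, 95% interval -0.31 to 0.05) and Igf2 (-0.11, -0.23 to 0.00138) were not called. Of the 12 fibroblast markers, 4 were called higher and 7 lower in SKO+HDAC7, with a median of -0.36, and their part in these differences was not tested.

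In the order of the 8 group means, both GFP groups stood at the top for Dlk1, Igf2, Mest, Peg3, Meg3, Grb10 and Igf2r, with the day 10 array above the day 6 array. For Dlk1 the order below them was SKO+HDAC7 (6.92), SKO+MEF2C (6.90) and SKO+Flag (6.79) at day 6, then SKO+MEF2C (6.78), SKO+Flag (6.52) and SKO+HDAC7 (6.50) at day 10. Each neighbour overlapped the next except SKO+MEF2C and SKO+Flag at day 10. For Igf2 the 3 day 6 means (8.94, 8.91 and 8.89) overlapped and stood above the 3 day 10 means (8.24, 8.13 and 7.92). For Mest all neighbours were apart except the SKO+HDAC7 groups of day 10 (7.15) and day 6 (7.12). For Cdkn1c the order began with GFP (9.09), SKO+HDAC7 (9.03) and SKO+Flag (8.59) at day 10 and ended with GFP (7.60) and SKO+MEF2C (7.55) at day 6, which overlapped. With 1 or 2 arrays a group, not overlapping is a weak criterion.

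The other imprinted genes did not share a direction. Of 48 measured outside the 10, 10 were called higher and 15 lower in SKO+Flag than in GFP over both days, 52.1% in all against 35.7% of all genes, and their median difference was -0.07. The median of the 9 imprinted growth genes was -1.57. Both sets were chosen with earlier results of these data known, so these medians are a description only. Slc38a4, a paternally expressed amino acid transporter, was lower by 2.06 ± 0.08. Rian, a non-coding RNA of the Dlk1 and Meg3 domain, was lower by 1.34 ± 0.15, and Zim1, a neighbour of Peg3, by 1.11 ± 0.08. On the SKO+Flag arrays Zim1 read 4.79 to 4.96 and Rian 5.22 to 5.86, where the array medians were 5.68 to 5.76. Such low levels include background. Zim1 read 5.42 and 6.59 on the GFP arrays of day 6 and day 10. Nnat, which encodes the membrane protein neuronatin, was higher by 1.64 ± 0.08. Against SKO+Flag, 2 of the 48 were called higher and 6 lower in SKO+HDAC7, 16.7% against 10.9% of all genes, among them Atp10a (-0.62 ± 0.05), Zdbf2 (-0.60 ± 0.10), Slc38a4 (-0.52 ± 0.07) and Peg10 (0.43 ± 0.09). In SKO+MEF2C 4 were called higher and 5 lower, 18.8% against 10.3% of all genes, among them Nnat (-0.94 ± 0.07), Peg10 (-0.41 ± 0.09), Htr2a (0.40 ± 0.06) and Sgce (-0.27 ± 0.05).

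**Figure D4:**
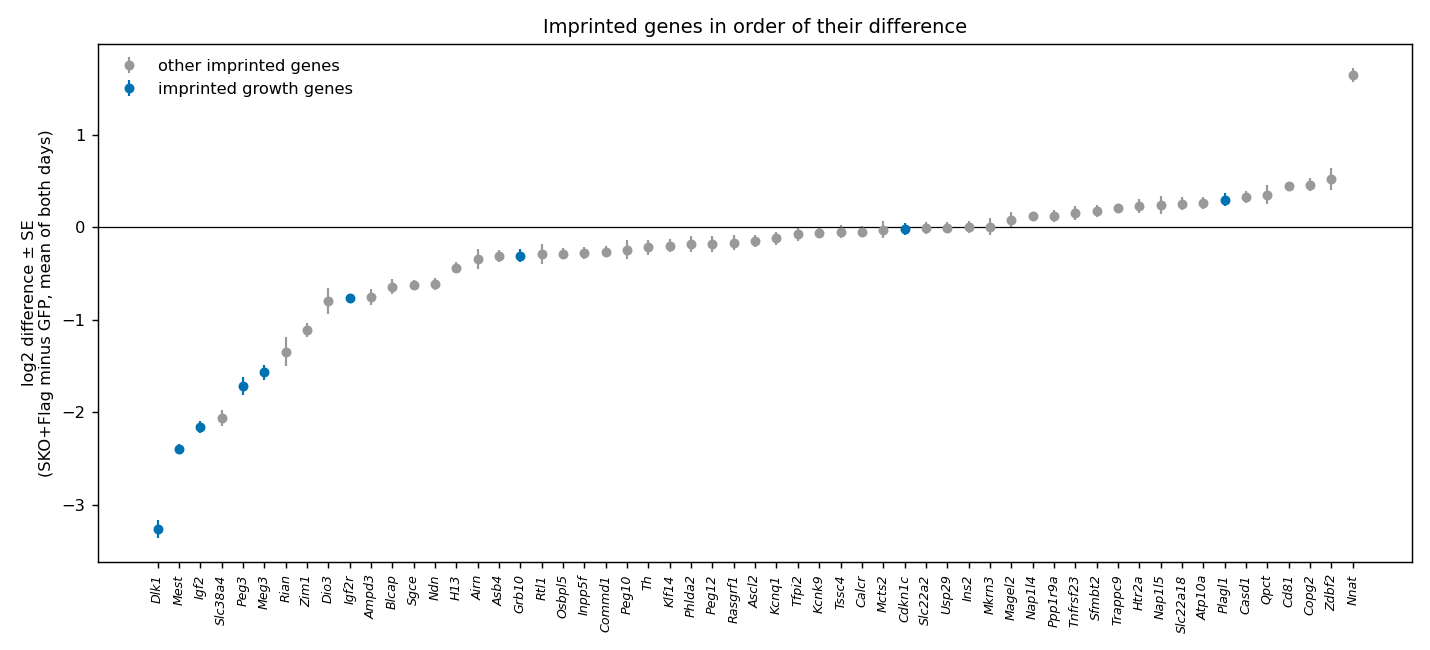
Log2 difference of SKO+Flag from GFP, mean of both days ± SE, for the 48 other imprinted genes (grey) and the 9 imprinted growth genes (blue), in order. Dlk1, Mest and Igf2 are the lowest at -3.26, -2.40 and -2.16, and Nnat is the highest at 1.64. Both sets were chosen with earlier results of these data known.

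Of 21 measured regulators of imprints and DNA methylation, 10 were called higher and 1 lower in SKO+Flag than in GFP, 52.4% against 35.7% of all genes. Tet2, which oxidises methylated cytosine, was higher by 1.39 ± 0.11, Zfp57, a zinc finger protein that binds methylated imprinting control regions, by 1.06 ± 0.09, the de novo methyltransferase Dnmt3a by 0.68 ± 0.07 and Uhrf1, which brings Dnmt1 to newly copied DNA, by 0.63 ± 0.07. In SKO+HDAC7 against SKO+Flag, 2 were called higher and 1 lower, 14.3% and so near the 10.9% of all genes: Uhrf1 by 0.44 ± 0.05, Dnmt1 by 0.26 ± 0.05 and Dnmt3a by -0.32 ± 0.06. In SKO+MEF2C 0 were called higher and 5 lower, 23.8% against 10.3% of all genes, among them Zfp57 (-0.67 ± 0.07), Tet2 (-0.50 ± 0.09), Uhrf1 (-0.33 ± 0.05) and Dnmt1 (-0.29 ± 0.05). DNA methylation was not measured here.

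Around Igf2 and Igf2r, 20 genes of the IGF axis were measured, and 6 were called higher and 9 lower in SKO+Flag than in GFP, 75.0% against 35.7% of all genes. The binding proteins Igfbp5 and Igfbp2 were lower by 2.29 ± 0.07 and 2.26 ± 0.08, Igfbp3 was higher by 2.16 ± 0.06, and Pappa, a protease that cleaves IGF binding proteins, was lower by 1.68 ± 0.06. In SKO+HDAC7 against SKO+Flag, 1 was called higher and 5 lower, 6 of the 20 against 10.9% of all genes, with Igfbp7 at -1.05 ± 0.04, Igfbp5 at -0.59 ± 0.05, Igf1 at -0.55 ± 0.07 and Pappa at -0.38 ± 0.05. In SKO+MEF2C, 6 were called higher and 3 lower, 9 of the 20 against 10.3% of all genes, with Igfbp7 at 0.72 ± 0.04, Igfbp2 at 0.59 ± 0.07, Igfbp5 at 0.51 ± 0.05 and Pappa at 0.50 ± 0.05. Igfbp7, Igfbp5 and Pappa thus lay below SKO+Flag with HDAC7 and above it with MEF2C, as Mest did. From the day 6 to the day 10 GFP array Igfbp2 was higher by 2.23 ± 0.13, Igfbp4 by 2.06 ± 0.12, Igfbp3 by 2.05 ± 0.09 and Igf1 by 2.03 ± 0.14. Of the 20 genes, 7 were called higher and 2 lower between these arrays, where 3.68% of all genes were called. The median difference of the list was -0.03, so the list as a whole did not rise. These differences rest on 1 array a day.

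For each of the 8 genes whose group means spanned at least 1, the genes of most similar pattern were sought among 2041 genes with such a span, by Pearson correlation over the 8 group means. The nearest were Thbs4 to Dlk1 (r = 0.998), Rcn1 to Igf2 (0.992), Igfbp5 to Mest (0.991), Aldh1l2 to Peg3 (0.997), Ugcg to Meg3 (0.992), Man2a1 to Igf2r (0.992), Pltp to Cdkn1c (0.953) and Prss35 to Plagl1 (0.946). The points share the GFP arrays, which set most of the span for all but Cdkn1c and Plagl1, so these values are a description of 8 means. The SKO groups alone spanned 1.48 of the 1.54 for Cdkn1c and 1.00 of the 1.12 for Plagl1, against 0.63 of 2.34 for Peg3.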

How the data were processed

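The 14 arrays (Affymetrix, whole transcript) each held 1 RNA sample and form 8 groups of vector and day. The authors deposited log2 expression values per probe set. Per the submitters' processing notes, RMA and Partek were used; their versions and the genome build are not given in the sources used here. The log2 values were analysed without renormalizing or filtering them, and the arrays had medians of 5.68 to 5.76. Precision is limited by how few arrays each group has. RMA returns a value for every probe set, so low levels include background, and folds may be compressed.

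Of 28815 probe sets, the platform annotation named 1 gene for 21780, several for 1605 and none here for 5430. Entrez IDs matched a RefSeq gene table for 21689, which changed 0 symbols. Each of 19935 genes was represented by its probe set with the highest mean, which mattered for 998 genes with several.

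In R 4.3.3, limma 3.58.1 (lmFit, eBayes) fitted 1 mean per group to all 14 arrays, with 6 residual and 4.71 prior degrees of freedom. Calls required an adjusted p under 0.05 by Benjamini-Hochberg over all genes tested. Errors are the SE of log2 differences. The interactions of SKO+HDAC7 and SKO+MEF2C with GFP were added after seeing the data. The genes and lists were chosen with earlier results of these data known. Named genes are the 10 imprinted growth genes, up to 4 called members of largest change per list and comparison, and for each gene spanning at least 1 the genes of most similar group means. The gene lists were other imprinted genes, regulators of imprints and DNA methylation, the IGF axis and markers of cell types, described by counts and medians with no set test.

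Alternatives were median centring or quantile normalization of the arrays, array weights, a robust prior with trend, only the groups compared, only the brighter genes, a gene's mean over its probe sets, a minimum difference of 1, a replicate block, and leaving out each array. The procedure was run on simulated data with independent arrays and the same spread in GFP as in the other groups. That run checked SKO+Flag against GFP alone and cannot test those assumptions. Array 1 and array 2 of a group are experiments 1 and 2 of the labels. A free-text description on every array, naming another kind of sample, was not used.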

Additional observations from a re-analysis of the deposited data

Results flagged for a closer look

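The day 10 minus day 6 change of several genes differed between vectors, as tested by the interaction of vector and day in limma. Each difference from GFP rests on 1 GFP array a day, and the 3 SKO groups share those arrays.

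For Dlk1 the change differed from that in GFP by -2.24 in SKO+Flag, -2.39 in SKO+HDAC7 and -2.10 in SKO+MEF2C. For Mest it differed by -1.69, -1.75 and -0.92, for Plagl1 by -1.60, -1.72 and -1.37, and for Igf2 by -1.40, -1.67 and -1.49, in the same order. For Peg3 the values were -1.26, -1.09 and -0.96, and for Cdkn1c they were -0.96, -0.87 and -0.83. Igf2r differed by -0.41 in SKO+HDAC7 (adjusted p = 0.021, 0.0603 without array 2 of SKO+HDAC7 at day 10 and 0.0812 with the compared groups fitted alone), and its differences in SKO+Flag and SKO+MEF2C, -0.33 and -0.19, were not called. The Peg3 call in SKO+Flag was lost with the compared groups fitted alone (adjusted p = 0.0528). The Peg3 call in SKO+MEF2C (adjusted p = 0.022) was lost without array 1 (0.0631) or array 2 (0.0665) of SKO+MEF2C at day 10 or array 1 at day 6 (0.0773). The Meg3 difference in SKO+Flag, -0.60 at an adjusted p of 0.063, was called without array 2 of SKO+Flag (0.0182) or either SKO+MEF2C array (0.0429) of day 10. In these interactions 8, 8 and 6 of the 12 fibroblast markers were called lower and 0 higher in SKO+Flag, SKO+HDAC7 and SKO+MEF2C, and their part was not tested.

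Between vectors that both carry SKO, the day 10 minus day 6 change of Mest was greater by 0.77 with MEF2C than with the empty vector (adjusted p = 0.015). This call was lost without either day 6 array of SKO+Flag, either day 6 array of SKO+MEF2C or array 1 of SKO+MEF2C at day 10 (0.0552 to 0.0764), and with the compared groups fitted alone (0.0925).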

How the results depend on the processing

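No difference reversed among the called results of the 9 genes. Requiring a difference of at least 1, on top of the adjusted p, left 5, 5 and 5 genes called against GFP in SKO+Flag, SKO+HDAC7 and SKO+MEF2C over both days (Dlk1, Igf2, Mest, Peg3 and Meg3). It left 0 called among the 3 SKO groups and 0 between the days in each of them. Over the 10 differences of single days it left 32 calls of 59. The share of all genes passing this rule was not computed, so these counts are a description only. The 5 genes are those whose promoters are printed, which were already picked for the size of their difference from GFP. Quantile normalization left 3 of 5 calls for SKO+HDAC7 against SKO+Flag, and fitting the compared groups alone left 3 of 6 between the days in SKO+Flag; the cause was not tested.

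Leaving out 1 array at a time gave 8 to 8, 8 to 8 and 9 to 9 calls against GFP over both days, 3 to 5 for SKO+HDAC7 against SKO+Flag, 2 to 3 for SKO+MEF2C against SKO+Flag and 4 to 7 for SKO+HDAC7 against SKO+MEF2C. Between the days it gave 4 to 6 in SKO+Flag, 4 to 6 in SKO+HDAC7 and 3 to 4 in SKO+MEF2C. It gave 12 to 15 for the GFP days with the planned interactions, and 56 to 60 for the single days. Leaving out a GFP array removes its group, so the mean over both days and the GFP change have no value there, and GFP alone leaves no degrees of freedom. Over the 225 single genes and comparisons, 20 lost their call and 10 gained one in at least 1 of the fits without an array. That happened 86 and 18 times among 2970 results, each of 1 gene, 1 comparison and 1 array left out.

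The experiment numbers were not shown to pair the arrays: deviations of same-numbered arrays correlated at -0.09 to 0.18 within a day and down to -0.24 between the days of SKO+Flag. With the number as a replicate block within each day, 4 of 7 genes stayed called for SKO+HDAC7 against SKO+MEF2C, and over both days 6. Crossing the numbers in SKO+Flag, an alternative chosen after seeing the data, gave 6 calls between its days, as without a block.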
